A study of Mus musculus with 78 samples.

Results

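The amino acid transporter genes described here are the members of 7 solute carrier families, Slc1, Slc3, Slc6, Slc7, Slc36, Slc38 and Slc43, taken by gene symbol alone. The symbol rule found 59 genes of 22615 in the expression tables, and all 59 stood in each of the 3 tables. Slc6a20a and Slc6a20b carry a letter after the number and fall outside the rule. The tables held 30 RNA-seq libraries of mouse embryos, 2 for each of 15 groups, out of 78 samples that also covered DNA methylation and chromatin contacts, which were not used here.

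All embryos in vivo came from C57BL/6N females mated with DBA/2N males, with no allele or drug added. The blastocyst groups were inner cell mass (ICM) and trophectoderm (TE) at E3.5 and ICM at E4.0, from superovulated females, with outer cells killed by antibody and complement to free the ICM and RNA taken by direct lysis. The later groups came from natural matings, with RNA cleaned on a column. Epiblast (Epi) and visceral endoderm (VE) were taken at E5.5 and at E6.5. At E7.5 the germ layers ectoderm, mesoderm and endoderm were taken along with the primitive streak (PS). The cultured groups were embryos of superovulated females, flushed at E4.5 and grown in CMRL 1066 medium, for 1, 2 or 4 days, with 1 mM glutamine, 1 mM pyruvate and 20% fetal bovine serum. After 4 days the epiblast and VE were parted and measured separately. For 1 and 2 days the labels name the whole embryo while the protocol describes a freed ICM, so these libraries are called cultured embryos. The deposited names of these libraries carry E40, where the sample records give E4.5, so their starting stage is not certain. The labels do not say that the 2 libraries of a group came from separate litters, so the p-values measure only the spread between these libraries, which may be technical.

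Amino acids cross membranes through a few kinds of carrier. Cationic carriers of the Slc7 family, such as Slc7a1 and Slc7a3, bring in arginine and lysine on their own. The light chains of the same family work as exchangers and need a heavy chain, Slc3a2 (the CD98 heavy chain) or Slc3a1 (rBAT), to reach the membrane. Slc38 carriers of system A draw in small neutral amino acids and glutamine with sodium, and Slc1a5 and Slc1a4 exchange neutral amino acids. Slc1a1 and Slc1a3 take up glutamate and aspartate, Slc6 carriers move neutral amino acids, taurine, creatine and neurotransmitters, and Slc36 carriers run on protons. Absorptive epithelia such as gut, kidney tubule and yolk sac endoderm are known for light-chain exchangers, and some carriers, Slc38a9 among them, sit on lysosomes and signal to the growth kinase mTORC1.

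Levels are given in FPKM, a fragment count scaled to transcript length and library size, which corrects for gene length. In 22 of the 59 genes (37.3%, against 34.4% of all genes) the mean reached 10 FPKM in at least 1 group, 14 peaked between 1 and 10 FPKM, and 23 stayed under 1 FPKM in every group. A gene was tested where at least 2 libraries reached 1 FPKM, which 37 of the 59 did. The highest value of any of the other 22 in any library was 1.21 FPKM, and they include the neurotransmitter carriers Slc6a2, Slc6a3 and Slc6a5, the gut and kidney carriers Slc6a18 and Slc6a19, and the light chains Slc7a10, Slc7a12 and Slc7a13. Of the 11 Slc38 genes 5 reached 10 FPKM, of the 9 light chains 4, of the 3 Slc43 genes 3, and of the 5 anionic carriers 2. Slc3a2 alone was at 10 FPKM or more in all 15 groups.

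**Figure D1:**
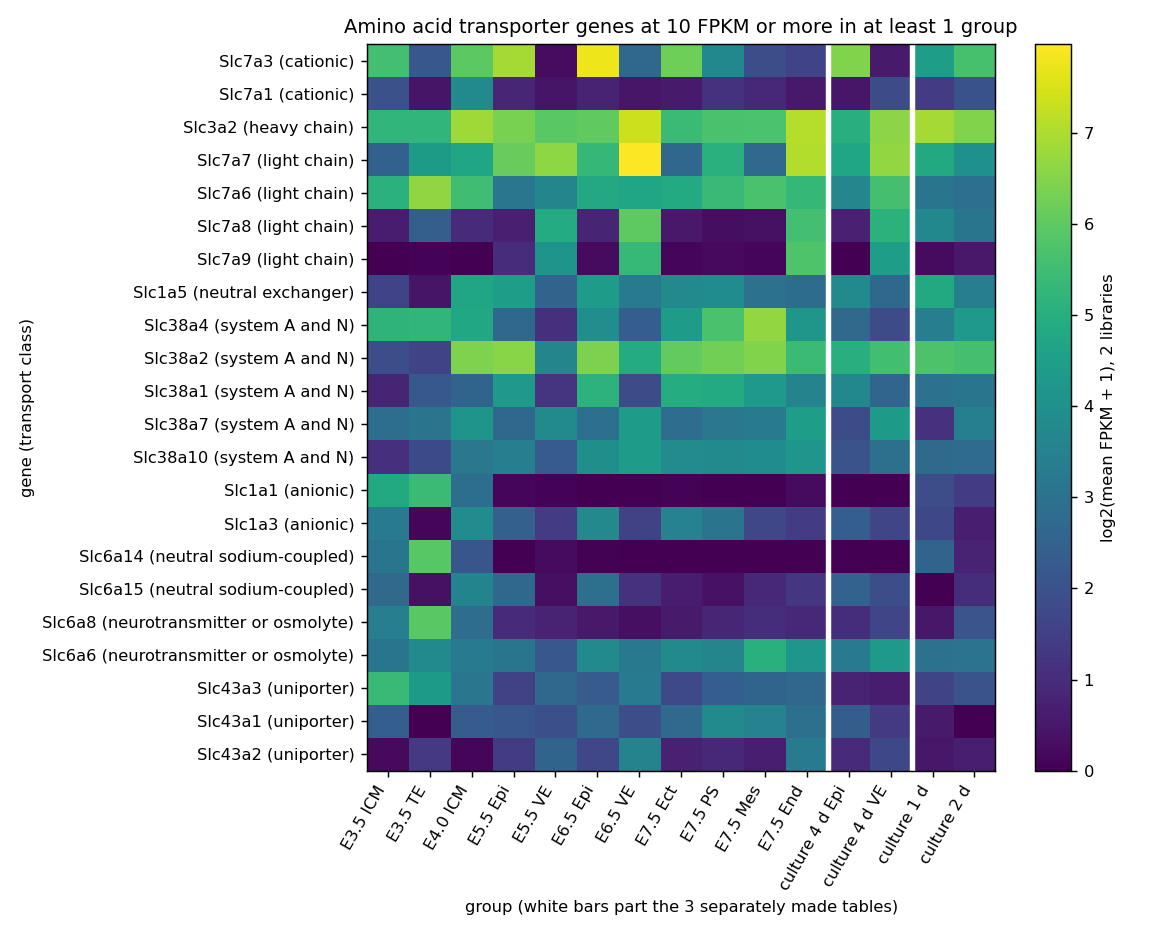
Mean level of the 22 genes that reached 10 FPKM in at least 1 group, as log2(mean FPKM + 1) over 2 libraries, with groups in columns and genes in rows sorted by transport class. White bars part the 3 tables, which were made separately, so colours are to be compared within a table: Slc7a3 is bright in epiblast and dark in VE, while Slc7a8 and Slc7a9 show the opposite.

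The tissue labels were checked on fixed marker lists. The 8 endoderm markers summed to 2940 and 4244 FPKM in the E5.5 VE libraries, 5726 and 6253 at E6.5 and 5558 and 5073 in E7.5 endoderm, against 12 and 17 in E5.5 epiblast and 2.14 and 17.7 in E6.5 epiblast. Across genes the 2 libraries of a group correlated with r between 0.898 and 0.994, lowest after 2 days of culture. Pou5f1, which marks pluripotent cells, was at 3.21 and 96.7 FPKM in the 2 libraries cultured for 2 days, so replicate 1 stood apart from its label mate. In E6.5 VE the sum of the 4 ICM markers (Pou5f1, Nanog, Sox2, Tdgf1) was 44.5 FPKM in replicate 1 and 4.98 in replicate 2. In VE cultured for 4 days, the 4 epiblast markers summed to 286 FPKM in replicate 1 and 21.6 in replicate 2. Pou5f1, 1 of the 4, was at 1.54 and 0.187 FPKM there, so these sums are mostly of the other genes of the list. Since whole tissues were sequenced, fewer cells of a type and less RNA per cell cannot be told apart.

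Differences below are log2 differences of FPKM + 1 with their standard error, which understate the change of low genes. A gene was called where the adjusted p (limma, Benjamini-Hochberg over 13493 genes) was under 0.05 and the log2 difference at least 1 in size. Comparisons that share a group, such as those among the E7.5 tissues, share its libraries.

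The first comparison asked how the inner and outer cells of the blastocyst differ. At E3.5 the trophectoderm had more Slc6a14 and Slc6a8, and the ICM more of the glutamate carrier Slc1a3 and of Slc6a15. Of the 37 tested genes 10 were called, 7 higher in ICM and 3 higher in TE, where 17.3% of all genes tested were called. Slc6a14, a broad carrier of neutral and cationic amino acids, was at 8.52 and 6.68 FPKM in ICM and 29.4 and 88.8 in TE. The groups did not overlap, and the ICM was lower by a log2 difference of -2.61 ± 0.63 (adjusted p = 0.0055). That call was lost without ICM replicate 2 or TE replicate 2 (adjusted p up to 0.085) and with a pseudocount of 0.1. Slc6a8, the creatine carrier, was at 9.25 and 10.1 FPKM in ICM and 88.0 and 31.2 in TE, a difference of -2.33 ± 0.41 (adjusted p = 0.00028). Its levels in TE spread widely, yet each exceeded both ICM values. In the fit on the 2 groups alone neither Slc6a14 nor Slc6a8 was called.

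Slc1a3, a glutamate and aspartate carrier, stood at 7.11 and 9.93 FPKM in ICM and was nearly absent from TE, at 0.172 and 0 (3.12 ± 0.59, adjusted p = 0.00062). Slc6a15, a carrier of branched-chain amino acids and proline, was at 5.53 and 6.14 FPKM in ICM and 0.540 and 0.0412 in TE (2.43 ± 0.46, adjusted p = 0.00063). Both thus marked the inner cells, while the related Slc1a1 was high in both, at 31.8 and 23.1 FPKM in ICM and 32.6 and 51.5 in TE, and was not called. The 8 endoderm markers summed to 32.7 and 35.8 FPKM in ICM and 36.1 and 36.1 in TE. The 4 parietal endoderm markers (Thbd, Lamb1, Sparc and Col4a1) summed to 183 and 220 in ICM and 10.4 and 10.3 in TE. Thbd was at 0 in both ICM libraries, and the list summed to 286 and 326 FPKM in E6.5 VE, so it is not particular to parietal endoderm. The 5 TE markers summed to 170 and 258 FPKM in the ICM libraries and 1304 and 2975 in TE. The part of cells with any of these markers in the differences was not tested. The other 6 called genes, named after their values were seen, were Slc1a4, Slc1a5, Slc43a1, Slc7a1 and Slc7a15, higher in ICM, and Slc7a8, higher in TE, with no group mean above 4.29 FPKM. Slc7a6, an exchanger of cationic for neutral amino acids, was at 37.0 and 29.0 FPKM in ICM and 97.2 and 101 in TE. Slc7a3 was at 36.1 and 58.9 in ICM and 1.99 and 4.92 in TE. Neither was called (adjusted p = 0.069 for both) although the groups did not overlap. For Slc7a3 the standard error was 1.31, which pools its spread over all 15 groups, among them cultured embryos whose libraries differed widely.

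Among the other amino acid and peptide carriers and partner proteins, 13 of 17 listed genes were tested, and 3 were higher in ICM and 2 in TE. Slc15a2, a peptide carrier, had a mean of 40.4 FPKM in ICM and 435 in TE (-3.43 ± 0.53, adjusted p = 7.46e-05). Slc25a13, the mitochondrial aspartate and glutamate carrier, ran the other way, with 63.7 FPKM in ICM and 13.0 in TE (2.22 ± 0.37, adjusted p = 0.0002). Of 28 genes of mTORC1 amino acid sensing, 2 were higher in ICM and 3 in TE, a share near the 17.3% over all genes. Among the latter were the Rag GTPases Rragd (4.24 and 42.3 FPKM) and Rragc (2.10 and 15.7 FPKM).

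From E3.5 to E4.0 several carriers of the ICM differed in level. Of the 37 tested genes 11 were called, 8 higher and 3 lower at E4.0, where 20.6% of all genes tested were called. With quantile normalization the split was 6 higher and 4 lower, and the median over all genes tested was higher at E4.0 by a log2 difference of 0.27. Slc38a2, the main system A carrier, was at 2.31 and 3.20 FPKM at E3.5 and 84.3 and 85.2 at E4.0. This was the largest difference of the group in this comparison, 4.52 ± 0.42 (adjusted p = 1.67e-07), and 4.25 above the median of all genes. Slc1a5, the glutamine exchanger, was at 2.44 and 1.65 FPKM at E3.5 and 35.6 and 14.3 at E4.0 (2.97 ± 0.40, adjusted p = 1.82e-05). Slc1a4, its relative for alanine, serine and cysteine, was at 2.59 and 1.46 and then 13.7 and 5.97 FPKM (1.77 ± 0.47, adjusted p = 0.0088). Both E4.0 levels of each exceeded both E3.5 levels, with replicate 1 the higher at E4.0 in both genes.

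Of the 3 cationic carriers only Slc7a1 was called, and Slc7a2 and Slc7a3 were not. Slc7a1 was at 2.69 and 3.15 FPKM at E3.5 and 16.2 and 9.71 at E4.0 (1.80 ± 0.40, adjusted p = 0.0023), and E4.0 ICM was the only group in which its mean reached 10 FPKM. Slc7a3 was already at 36.1 and 58.9 FPKM at E3.5 and stood at 71.5 and 52.7 at E4.0, with overlapping libraries and no call. Slc7a7, which exchanges cationic for neutral amino acids, was at 4.67 and 4.43 FPKM and then 25.7 and 24.4 (2.23 ± 0.77, adjusted p = 0.04), and Slc38a10, a Slc38 member of little known role, at 1.22 and 0.970 and then 12.1 and 3.71 (1.91 ± 0.50, adjusted p = 0.0087). The call of Slc7a7 was lost whichever of the 4 libraries was left out (adjusted p up to 0.16), and those of Slc38a10 and Slc1a4 without E3.5 replicate 2 or E4.0 replicate 1 (adjusted p up to 0.17 and 0.13). Slc7a7 also lost its call with quantile normalization, at 1.73 (adjusted p = 0.086), and with no filter. With a pseudocount of 0.1 Slc7a1 and Slc1a4 lost theirs. The heavy chain Slc3a2, at 39.2 and 35.3 and then 118 and 109 FPKM (1.58 ± 0.23, adjusted p = 4.68e-05), and the light chain Slc7a5 for large neutral amino acids, at 1.79 and 1.91 and then 5.30 and 6.53 FPKM (1.27 ± 0.34, adjusted p = 0.0093), were called too and are named after their values were seen.

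Lower at E4.0 were Slc43a3, a relative of the large neutral amino acid carriers that moves purine bases, and the glutamate carrier Slc1a1. Slc43a3 was at 53.2 and 28.5 FPKM at E3.5 and 7.73 and 7.70 at E4.0 (-2.20 ± 0.46, adjusted p = 0.0016). Slc1a1 was at 31.8 and 23.1 and then 4.29 and 8.36 FPKM (-2.0 ± 0.31, adjusted p = 9.41e-05). Slc7a15, the third, went from 1.52 and 1.87 FPKM to being listed at 0 in both libraries. In the fit on the 2 groups alone 6 members were called, and Slc1a5, Slc7a1, Slc1a4, Slc38a10 and Slc1a1 were not among them. Without E3.5 replicate 2 there were 7.

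The response to amino acid shortage was described beside the carriers. It runs through the kinase Gcn2 (Eif2ak4) and the transcription factor Atf4, and turns on enzymes and carriers for amino acids. Of 18 listed genes 14 were higher at E4.0 and 0 lower, with a median log2 difference of 1.96 against 0.27 over all genes, of which 2130 were higher and 648 lower. Atf4 was at 90.1 and 82.2 FPKM at E3.5 and 259 and 401 at E4.0, and Asns, asparagine synthetase, at 256 and 262 and then 588 and 851. Pycr1, of proline synthesis, had means of 0.348 and 22 FPKM (4.01 ± 0.51, adjusted p = 8.91e-06) and Psph, of serine synthesis, of 13.9 and 81.5 FPKM (2.47 ± 0.37, adjusted p = 7.14e-05). Of the 28 mTORC1 sensing genes 5 were higher and 0 lower, among them Sesn2, a leucine sensor that the amino acid response list also holds, with means of 1.54 and 8.35 FPKM (1.87 ± 0.49, adjusted p = 0.0084). Markers of endoderm moved with these genes: the 8 endoderm markers summed to 32.7 and 35.8 FPKM at E3.5 and 142 and 66.4 at E4.0, 5 of 8 were at 1 FPKM or more in both E4.0 libraries, and Afp was at 0. The 4 parietal endoderm markers, with Thbd at 0 in both E3.5 libraries, summed to 183 and 220 and then 959 and 557 FPKM. Their part in the transporter differences was not tested.

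Promoter windows from RefSeq (GRCm38.p6, 250 bases before to 50 after the start) were at hand for 41 of the 59 genes. They were searched on both strands for TGATGNAA, the core of the element through which Atf4 and its partners act on amino acid response genes. Such letters stood in 3.97% of all 32851 windows, or in a window of 4.51% of genes, and in a window of 3 of the 41 members (7.32%), Slc7a7, Slc1a4 and Slc7a11. The first 2 were called higher at E4.0. So were Slc38a2, Slc3a2, Slc7a1 and Slc38a10, whose windows held no match. Slc7a11, the cystine and glutamate exchanger, was at 0.126 and 0.511 FPKM at E4.0. In embryos cultured for 1 day it was at 5.01 and 5.78 FPKM, in a separately made table, so these levels are not compared. In Slc1a4 the match lies in the bases after the start, which are not printed. The 250 bases before the start are shown for the other 2, with the match in capitals, because it is the feature searched for: Slc7a7 at chr14:54417945-54418194 on the minus strand, 1 of the 2 of its 5 windows that hold a match, which ends 133 bases before the start, and Slc7a11 at chr3:50443614-50443863 on the minus strand, where 2 matches on opposite strands end 58 and 39 bases before the start. TGATGNAA was 1 of 6 motifs searched after the expression values were known.
Slc7a7: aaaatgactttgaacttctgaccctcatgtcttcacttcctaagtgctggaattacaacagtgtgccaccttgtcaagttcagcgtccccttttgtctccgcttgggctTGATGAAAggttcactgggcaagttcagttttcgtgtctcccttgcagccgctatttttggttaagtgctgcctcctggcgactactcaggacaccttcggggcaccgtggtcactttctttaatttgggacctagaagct
Slc7a11: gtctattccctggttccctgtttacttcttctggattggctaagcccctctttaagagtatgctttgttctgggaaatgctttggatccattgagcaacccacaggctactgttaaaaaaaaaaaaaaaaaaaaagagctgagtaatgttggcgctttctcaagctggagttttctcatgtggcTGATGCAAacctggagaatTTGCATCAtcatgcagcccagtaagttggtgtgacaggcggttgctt

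Of the other 5 motifs, TATAAA stood in 13.6% of all windows and in those of 6 members (Slc1a3, Slc38a4, Slc3a1, Slc43a1, Slc7a1 and Slc7a15), CAAAGTCC in 1.42% and only Slc3a1 among members, and TTGCATNA, which overlaps TGATGNAA read on the other strand, in 2.75% and in Slc1a2, Slc1a4, Slc7a11 and Slc7a7. GTTAATNAT (0.801% of windows) and AGATAAGA (1.02%) stood in the window of 0 members. A match is a run of letters and was not tested as a binding site.

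**Figure D2:**
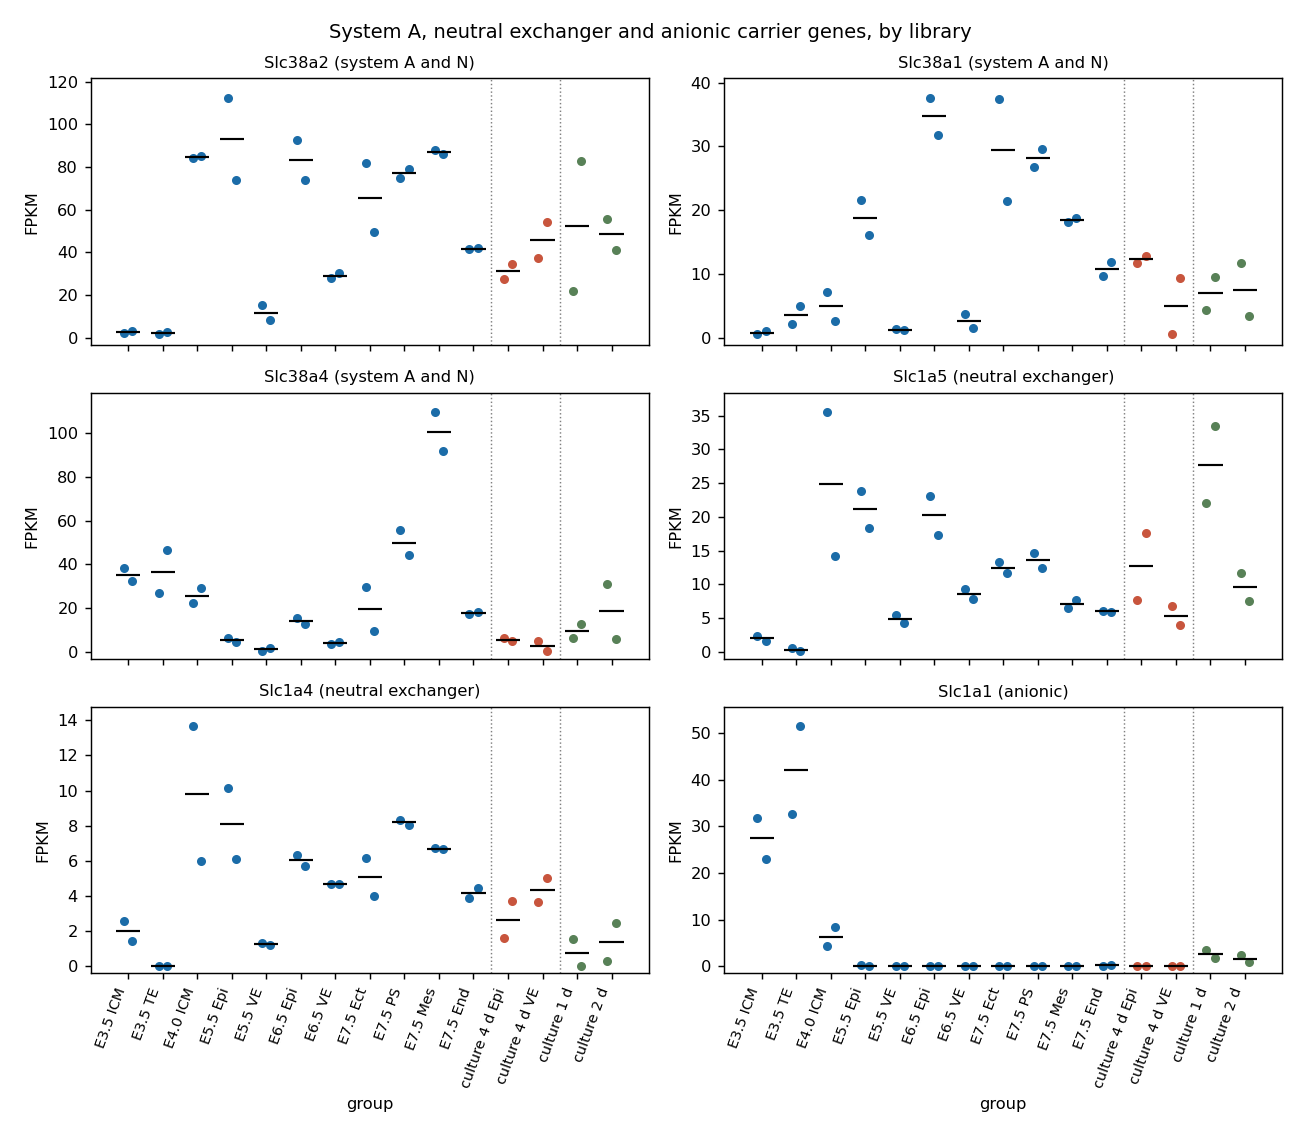
FPKM in each library (points) and group mean (bars) for Slc38a2, Slc38a1, Slc38a4, Slc1a5, Slc1a4 and Slc1a1, with dotted lines between the 3 separately made tables. Slc38a2 steps from 2.31 and 3.20 FPKM at E3.5 ICM to 84.3 and 85.2 FPKM at E4.0 ICM, Slc38a4 peaks in E7.5 mesoderm, and Slc1a1 is at or under 0.266 FPKM in all in vivo groups after E4.0.

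Several blastocyst carriers were lower in E5.5 epiblast than in E4.0 ICM. Of the 37 tested genes 10 were called, 2 higher and 8 lower at E5.5, where 17.6% of all genes tested were called. The stages differ in mating scheme and RNA preparation, which cannot be told apart from stage. Slc7a1 was at 16.2 and 9.71 FPKM at E4.0 and 0.417 and 1.2 at E5.5 (-2.94 ± 0.40, adjusted p = 1.49e-05), and Slc1a1 at 4.29 and 8.36 and then 0.207 and 0 FPKM (-2.68 ± 0.31, adjusted p = 2.56e-06). Slc7a6 was at 57.1 and 33.3 and then 11 and 4.5 FPKM (-2.46 ± 0.59, adjusted p = 0.0049), Slc38a4 at 22.2 and 29.3 and then 6.29 and 4.57 (-2.06 ± 0.64, adjusted p = 0.026), Slc6a8 at 7.14 and 5.20 and then 0.773 and 1.15 (-1.87 ± 0.41, adjusted p = 0.0021), and Slc43a3 at 7.73 and 7.70 and then 2.63 and 1.16 (-1.64 ± 0.46, adjusted p = 0.015). The blastocyst carriers Slc1a1, Slc6a8 and Slc6a14 thus stood at or under 1.15 FPKM in E5.5 epiblast. In E6.5 epiblast the means of Slc7a6 and Slc38a4 were 27.4 and 14.1 FPKM, with no call against E5.5.

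Slc38a1, a system A carrier for glutamine, rose from 7.18 and 2.67 FPKM to 21.6 and 16.1 (1.84 ± 0.64, adjusted p = 0.045). Its call was lost without E4.0 replicate 2 or either E5.5 library (adjusted p up to 0.34). Those of Slc38a4 were lost whichever library was left out (up to 0.15), of Slc7a6 without E4.0 replicate 1 or E5.5 replicate 2 (up to 0.086), and of Slc43a3 without either E4.0 library or E5.5 replicate 2 (up to 0.15). Slc38a2 was at 113 and 73.8 FPKM at E5.5, overlapping its E4.0 libraries, and was not called. The other called genes, named after their values were seen, were Slc43a2, higher, and Slc38a7 and Slc6a14, lower. Counts fell to 4 without E4.0 replicate 1, 6 without E4.0 replicate 2 and 4 without E5.5 replicate 2. With a pseudocount of 0.1 or no filter Slc38a1 and Slc38a4 lost their calls, and in the fit on the 2 groups alone Slc38a1, Slc7a6, Slc6a8 and Slc43a3 did. Of the 18 amino acid response genes 7 were lower and 0 higher at E5.5: Ddit3, which codes for Chop, was at 40.8 and 35.3 FPKM at E4.0 and 1.44 and 2.21 at E5.5, and Asns at 588 and 851 and then 79.1 and 115. Of the mTORC1 sensing genes 4 were higher and 0 lower, with Rragd at means of 2.65 and then 37.9 FPKM (3.40 ± 0.60, adjusted p = 0.00028).

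The comparison of epiblast with visceral endoderm asked how the embryo proper and the absorptive layer around it differ. At E5.5, 16 of the 37 genes were called, 9 higher in epiblast and 7 higher in VE, where 36.7% of all genes tested were called. The median over all genes was 0.36 higher in epiblast. At E6.5, 13 were called, 6 higher in epiblast and 7 higher in VE, where 16.5% of all genes tested were called. Higher in epiblast at both stages were Slc7a3, Slc38a1, Slc38a2, Slc38a3 and Slc6a15. Higher in VE at both were the light chains Slc7a8 and Slc7a9, Slc38a9 and Slc43a2. Counts fell to 10 at E5.5 without VE replicate 2, and at E6.5 to 7 without epiblast replicate 1 and 6 without VE replicate 2.

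Slc7a3, the cationic carrier, was at 165 and 71.9 FPKM in E5.5 epiblast and 0.204 and 0.207 in E5.5 VE (6.51 ± 1.31, adjusted p = 0.0005), and no other member had a larger difference there. At E6.5 it was at 245 and 191 FPKM in epiblast and 10.7 and 0.302 in VE (5.80 ± 1.31, adjusted p = 0.0029). Every epiblast library exceeded every VE library. Replicate 1 of E6.5 VE, with 10.7 FPKM, is the library whose ICM marker sum was 44.5 FPKM. The 4 epiblast markers summed to 379 and 387 FPKM in the 2 E6.5 VE libraries, with all 4 at 1 FPKM or more in both. Pou5f1 was at 20.9 and 2.10 FPKM there, so these sums are mostly of the other genes of the list. Without VE replicate 2 the difference was 4.22 and the call was lost (adjusted p = 0.092), and the part of epiblast RNA in it was not tested. Without VE replicate 1 the Slc7a3 call held, and 9 members were called at E6.5, 4 higher in epiblast and 5 higher in VE. The other cationic carriers, Slc7a1 and Slc7a2, were at or under 1.2 FPKM in the epiblast and VE libraries of both stages.

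Slc38a1 was at 21.6 and 16.1 FPKM in E5.5 epiblast and 1.33 and 1.24 in VE (3.10 ± 0.64, adjusted p = 0.00058), and at 37.7 and 31.8 against 3.66 and 1.53 at E6.5 (3.38 ± 0.64, adjusted p = 0.00055). Slc38a2 was at 113 and 73.8 FPKM against 15.3 and 8.12 at E5.5 (2.92 ± 0.42, adjusted p = 1.96e-05) and 92.8 and 74.1 against 28.1 and 30.2 at E6.5 (1.48 ± 0.42, adjusted p = 0.016). Both system A genes were thus higher in all 4 epiblast libraries, though at E6.5 the Slc38a2 call was lost without epiblast replicate 1 or either VE library (adjusted p up to 0.13). Slc6a15 was at 7.09 and 3.46 against 0.265 and 0.269 FPKM at E5.5 (2.25 ± 0.46, adjusted p = 0.00057) and 7.70 and 5.63 against 1.63 and 0.856 at E6.5 (1.78 ± 0.46, adjusted p = 0.0079). Slc1a5, at 23.8 and 18.4 against 5.45 and 4.22 FPKM, and Slc1a4, at 10.1 and 6.09 against 1.31 and 1.21, were higher in epiblast at E5.5 (1.92 ± 0.40, adjusted p = 0.00067, and 1.98 ± 0.47, adjusted p = 0.0019) and were not called at E6.5. Slc1a3 was called at E6.5, at 13.9 and 10.8 against 2.44 and 1.43 FPKM (2.20 ± 0.59, adjusted p = 0.01), and not at E5.5. The E6.5 calls of Slc1a3 and Slc6a15 were lost without epiblast replicate 1 or VE replicate 2 (adjusted p up to 0.11 and 0.10).

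Of the light chains, Slc7a8, which exchanges neutral amino acids, was at 0.981 and 0.270 FPKM in E5.5 epiblast and 25 and 32.8 in VE (-4.23 ± 0.39, adjusted p = 1.16e-07), and at 0.808 and 0.717 against 59.1 and 65.6 at E6.5 (-5.17 ± 0.39, adjusted p = 6.30e-09). Slc7a9, which exchanges cystine and cationic amino acids, was at 0.242 and 1.76 against 10.3 and 23.0 FPKM at E5.5 (-3.15 ± 0.41, adjusted p = 6.08e-06) and 0 and 0.375 against 32.8 and 46.7 at E6.5 (-5.10 ± 0.41, adjusted p = 1.68e-08). Each VE library exceeded each epiblast library for both genes. These 4 calls held in each leave-one-out fit and under each alternative tried. Slc7a7, the most abundant member in VE, was at 76.9 and 60.9 against 100 and 96.4 FPKM at E5.5, with no call, and 41.1 and 36.2 against 235 and 266 at E6.5 (-2.66 ± 0.77, adjusted p = 0.017). Its E6.5 call was lost whichever library was left out (adjusted p up to 0.11).

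The heavy chains differed from each other. Slc3a1, the known partner of Slc7a9, was at or under 0.454 FPKM in all 30 libraries, listed at 0 in both E5.5 VE libraries and at 0.0538 and 0 at E6.5. Slc3a2, the partner of Slc7a7 and Slc7a8, was at 83.9 and 78.7 FPKM in E5.5 epiblast and 64.3 and 56.1 in VE, with no call, and at 66.3 and 62.9 against 157 and 169 at E6.5 (-1.32 ± 0.23, adjusted p = 0.00025), a call named after its values were seen. The 9 light chain genes summed to 92.9 and 70.2 FPKM in E5.5 epiblast, 151 and 167 in E5.5 VE, 71.5 and 69.9 in E6.5 epiblast and 355 and 405 in E6.5 VE.

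Also higher in VE at E6.5 were the lysosomal arginine sensor Slc38a9, at 1.2 and 0.996 against 8.23 and 7.67 FPKM (-2.09 ± 0.26, adjusted p = 6.16e-06), the large neutral amino acid carrier Slc43a2, at 2.43 and 2.03 against 10.6 and 10.9 (-1.87 ± 0.40, adjusted p = 0.0019), and Slc38a7, a glutamine exporter of lysosomes, at 7.04 and 5.97 against 17.9 and 21.8 (-1.47 ± 0.46, adjusted p = 0.029). The last call was lost whichever library was left out (adjusted p up to 0.18). With a pseudocount of 0.1 the E6.5 calls of Slc43a2, Slc38a7, Slc1a3 and Slc6a15 were lost. Slc43a3 was higher in VE at E5.5, at 2.63 and 1.16 against 5.53 and 5.44 FPKM (-1.21 ± 0.46, adjusted p = 0.04), a call lost without epiblast replicate 2 or either VE library (up to 0.27), with a pseudocount of 0.1, with no filter and in the fit on the 2 groups alone. The other E5.5 calls, all with group means at or under 5.43 FPKM and named after their values were seen, were Slc38a3, Slc38a4 and Slc6a9 higher in epiblast and Slc36a1, Slc38a6, Slc38a9 and Slc43a2 higher in VE, and at E6.5 Slc38a3 was higher in epiblast.

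The list of other carriers and partner proteins was also described. Of its 13 tested genes, 0 were higher in epiblast at either stage, and 4 at E5.5 and 6 at E6.5 were higher in VE. Tmem27 (collectrin), which helps Slc6 carriers reach the membrane, was at 0 and 0.675 against 10.6 and 11.3 FPKM at E5.5 (-3.20 ± 0.26, adjusted p = 2.60e-08) and listed at 0 in both epiblast libraries against 13.7 and 21.3 at E6.5. Pqlc2, the lysosomal exporter of cationic amino acids, had means of 5.46 and 31.2 FPKM at E6.5 (-2.31 ± 0.36, adjusted p = 6.89e-05). Of the mTORC1 sensing genes 12 of 28 were higher in epiblast and 0 lower at E5.5, with a median of 0.88 against 0.36 over all genes, and 3 higher and 0 lower at E6.5. Of all 13493 genes 3663 were higher in epiblast and 1295 lower at E5.5, and 938 higher and 1293 lower at E6.5. Counted in either direction, the E5.5 shares of the list and of the members (43.2%) lay near the 36.7% of all genes. The E5.5 calls of the list all pointed to epiblast, while those of all genes went both ways. Rragd, a Rag GTPase, had means of 37.9 against 1.36 FPKM at E5.5 and 46.1 against 4.14 at E6.5. Of the 18 amino acid response genes, 9 were higher and 0 lower in epiblast at E5.5, and 3 higher and 1 lower at E6.5.

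**Figure D3:**
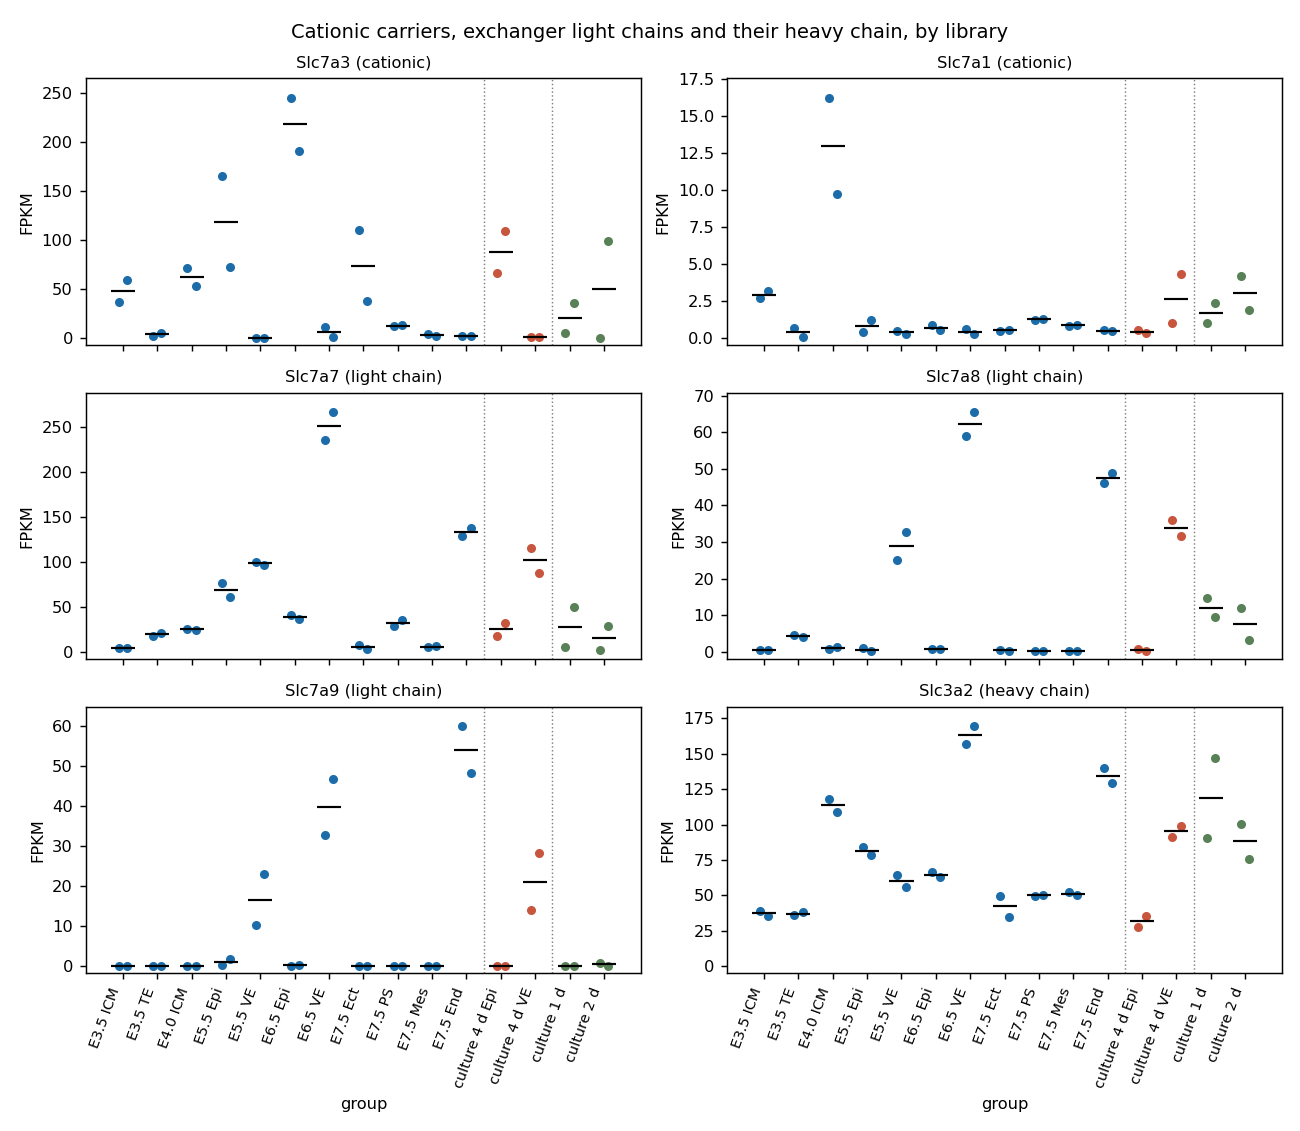
FPKM in each library (points) and group mean (bars) for the cationic carriers Slc7a3 and Slc7a1, the light chains Slc7a7, Slc7a8 and Slc7a9 and the heavy chain Slc3a2, with dotted lines between the 3 separately made tables. Slc7a3 lies between 71.9 and 245 FPKM in epiblast of E5.5 and E6.5 and at or under 10.7 FPKM in VE, and Slc7a8 and Slc7a9 are high in VE and E7.5 endoderm.

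Slc7a8 and Slc7a9 are shown with their promoters because they moved together between epiblast and VE, and Slc38a2 because it moved most between E3.5 and E4.0. The 250 bases before the first start are printed with CpG dinucleotides in capitals, the letters that carry DNA methylation: Slc38a2 at chr15:96699729-96699978 on the minus strand, Slc7a8 at chr14:54781887-54782136 on the minus strand and Slc7a9 at chr7:35448842-35449091 on the plus strand, all in GRCm38.p6. They held 30, 14 and 4 CpGs and 72.0%, 55.6% and 44.4% G or C. In full windows of 300 bases, taking the CpG-richest window of each gene, the median was 17 CpGs in the 15 members that reached 10 FPKM and have a window, 14 in the 14 members under 1 FPKM, and 8 over all genes. The 2 genes that shared the VE pattern thus differ in CpG content. Methylation of these promoters was not analysed here.
Slc38a2: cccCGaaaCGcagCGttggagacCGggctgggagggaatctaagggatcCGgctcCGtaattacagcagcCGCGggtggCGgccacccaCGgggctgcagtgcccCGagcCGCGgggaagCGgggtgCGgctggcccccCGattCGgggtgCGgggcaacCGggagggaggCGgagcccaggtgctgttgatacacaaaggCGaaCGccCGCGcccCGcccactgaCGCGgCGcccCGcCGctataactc
Slc7a8: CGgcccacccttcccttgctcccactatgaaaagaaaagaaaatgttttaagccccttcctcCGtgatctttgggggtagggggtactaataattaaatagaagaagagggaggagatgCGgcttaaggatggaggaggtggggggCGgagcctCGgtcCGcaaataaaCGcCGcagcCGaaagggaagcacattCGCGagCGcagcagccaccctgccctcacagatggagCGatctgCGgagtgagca
Slc7a9: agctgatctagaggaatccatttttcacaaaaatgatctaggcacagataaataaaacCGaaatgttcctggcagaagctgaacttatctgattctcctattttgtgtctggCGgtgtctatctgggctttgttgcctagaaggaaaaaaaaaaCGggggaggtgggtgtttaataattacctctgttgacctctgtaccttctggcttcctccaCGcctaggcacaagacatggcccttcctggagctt

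**Figure D4:**
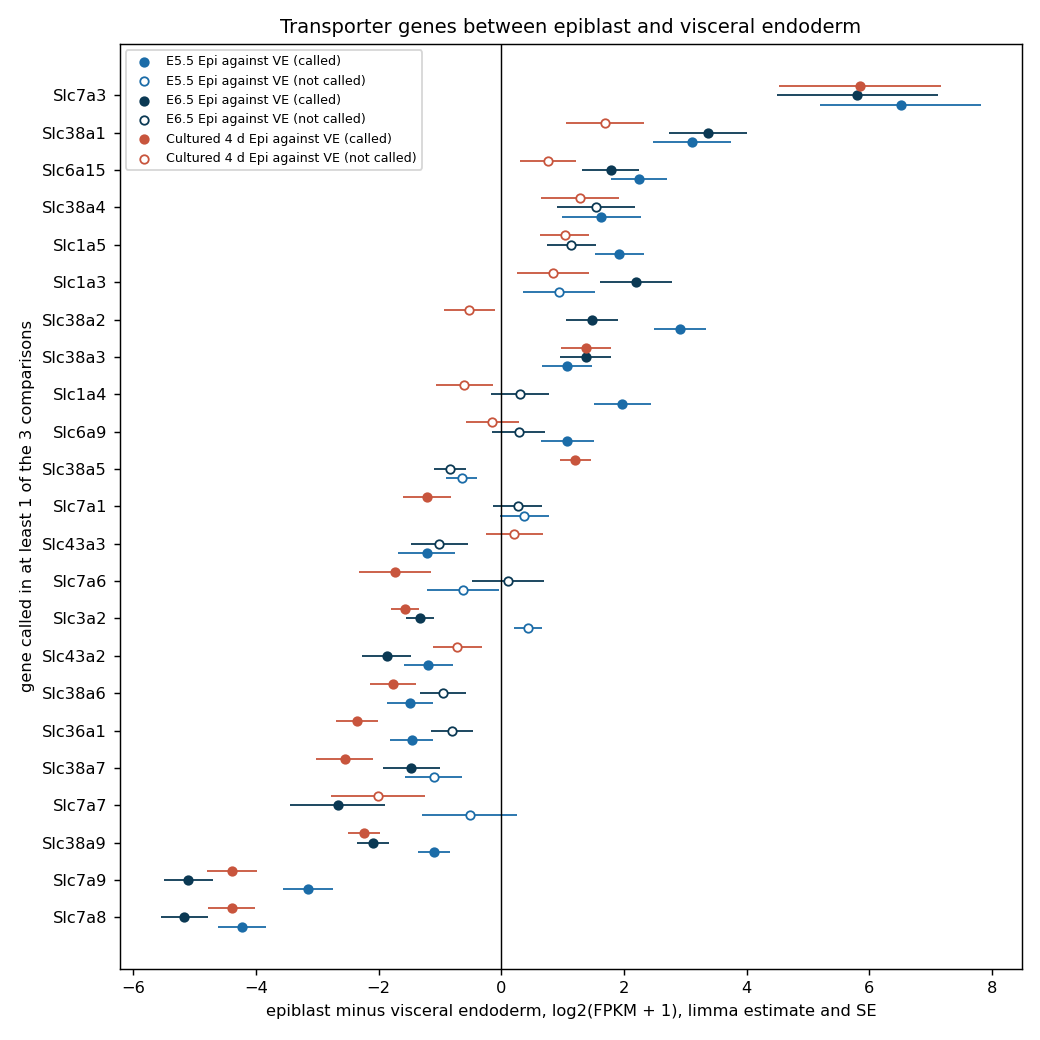
Log2 difference of FPKM + 1, epiblast minus VE, with its standard error (limma) for each member called in at least 1 of 3 comparisons: E5.5, E6.5 and culture for 4 days. Filled points were called. Slc7a3 lies furthest to the right and Slc7a8 and Slc7a9 furthest to the left in all 3 comparisons.

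From E5.5 to E6.5 the epiblast's carriers showed no call: 0 of 37 members, where 0.978% of all genes tested were called. At an unadjusted p under 0.05 there were 3 members in limma. They were Slc7a6, at 11 and 4.5 and then 26.4 and 28.4 FPKM (1.80 ± 0.59, adjusted p = 0.22), Slc1a3 (1.42 ± 0.59, adjusted p = 0.40) and Slc38a5 (1.05 ± 0.26, adjusted p = 0.051). In the VE, 9 of 37 were called, all 9 higher at E6.5, where 27.2% of all genes tested were called and the median of all genes rose by 0.50. With quantile normalization, which removes that shift, 3 were called, 1 higher and 2 lower. Slc3a2 rose from 64.3 and 56.1 to 157 and 169 FPKM (1.43 ± 0.23, adjusted p = 0.00024, 0.92 above the median of all genes), and Slc38a10 from 4.07 and 3.78 to 16.8 and 23.1 (2.07 ± 0.50, adjusted p = 0.0043, 1.57 above that median). Under quantile normalization Slc38a10 kept its call at 1.45 (adjusted p = 0.045) and Slc3a2 lost it at 0.51 (adjusted p = 0.14). The Slc38a10 call was lost without E6.5 VE replicate 2 (adjusted p = 0.052).

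The other named rises in VE exceeded the shift of all genes by 0.59 to 0.80. Slc38a2 rose by 1.31 ± 0.42 (adjusted p = 0.023), Slc7a9 by 1.29 ± 0.41 (adjusted p = 0.02), Slc38a9 by 1.13 ± 0.26 (adjusted p = 0.0032) and Slc7a8 by 1.09 ± 0.39 (adjusted p = 0.036), and with quantile normalization the values, in the same order, were 0.38, 0.28, 0.61 and 0.077, with 0 called (adjusted p from 0.14 to 0.96). The Slc38a2 call was lost without E5.5 replicate 2 or either E6.5 library (adjusted p up to 0.21), the Slc7a9 call without E5.5 replicate 1 or E6.5 replicate 2 (up to 0.30), and the Slc7a8 call whichever library was left out (up to 0.22). With a pseudocount of 0.1 Slc7a9 and Slc7a8 lost their calls, and in the fit on the 2 groups alone Slc38a2 and Slc7a9 did. The 4 epiblast markers summed to 121 and 181 FPKM in E5.5 VE and 379 and 387 in E6.5 VE. Among them Pou5f1 was at 0.277 and 0.490 FPKM and then 20.9 and 2.10. The 8 endoderm markers summed to 2940 and 4244 and then 5726 and 6253, and all FPKM of a library to 272055 and 329462 and then 455957 and 445769. The part of these shifts in the rises was not tested. The count was 4 without E5.5 replicate 2, 5 without E6.5 replicate 1 and 3 without E6.5 replicate 2. Slc1a4, Slc38a5 and Slc6a6, named after their values were seen, were the other 3 called.

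The difference between epiblast and VE was itself compared between the stages, to ask whether the 2 tissues drew apart. Here 2 of 37 members were called, 0 higher and 2 lower, where 6.07% of all genes tested were called and the median of all genes was -0.41. Slc3a2 shifted toward VE by -1.75 ± 0.33 (adjusted p = 0.0073), from a difference of 0.43 at E5.5 to -1.32 at E6.5. Slc7a9 shifted by -1.95 ± 0.57 (adjusted p = 0.048), a call lost in 6 of 8 fits with a library left out (all but those without E5.5 epiblast replicate 1 or E5.5 VE replicate 2, adjusted p up to 0.25), which left a count of 1. The call was also lost with a pseudocount of 0.1, with no filter and in the fit on the groups alone. With quantile normalization neither was called, at -1.07 (adjusted p = 0.07) and -0.97 (adjusted p = 0.41).

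At E7.5 the 4 tissues were compared with each other. Each tissue was set against the mean of the other 3, and primitive streak was also set against E6.5 epiblast. In the streak 2 of 37 members were called, 1 higher and 1 lower, where 3.74% of all genes tested were called. Slc6a15 fell from 7.70 and 5.63 to 0.222 and 0.409 FPKM (-2.53 ± 0.46, adjusted p = 0.0012), a call that held in each leave-one-out fit. Slc38a8, listed at 0 in epiblast and at 1.94 and 1.44 FPKM in streak, was the riser, named after its values were seen. The level of Slc7a3 was 245 and 191 FPKM in E6.5 epiblast and 12 and 12.6 in the streak. The limma difference (-4.03 ± 1.31, adjusted p = 0.10) was not called although the groups did not overlap. Its standard error pools the spread over all 15 groups, among them the cultured embryos, whose libraries differed widely in Slc7a3.

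In ectoderm 4 members were called, 1 higher and 3 lower, where 5.28% of all genes tested were called, and with quantile normalization 2 were higher and 3 lower. Slc7a3 was at 110 and 37.3 FPKM in ectoderm, 12 and 12.6 in streak, 4.10 and 1.40 in mesoderm and 2.29 and 1.82 in endoderm. Both ectoderm libraries exceeded the 6 others (3.65 ± 1.07, adjusted p = 0.039). The call was lost in 7 of 8 fits with a library left out, all but that without mesoderm replicate 1 (adjusted p up to 0.19), and with a pseudocount of 0.1 or no filter. The count was 1 without ectoderm replicate 2 and 2 without mesoderm replicate 2. The 3 lower calls, Slc7a7, Slc7a8 and Slc7a9, recur in mesoderm, and in both their libraries overlapped those of the other tissues, since the comparison mean includes endoderm.

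In mesoderm 5 members were called, 2 higher and 3 lower, where 4.71% of all genes tested were called. Slc38a4, a system A carrier that also takes cationic amino acids, was at 110 and 91.7 FPKM in mesoderm, 55.5 and 44.4 in streak, 29.8 and 9.79 in ectoderm and 17.3 and 18.2 in endoderm (1.97 ± 0.52, adjusted p = 0.022). Slc6a6, the taurine carrier, was at 30.2 and 34.9 FPKM in mesoderm and between 11.1 and 18.1 in the other 6 libraries (1.19 ± 0.32, adjusted p = 0.025). Both were highest in both mesoderm libraries. The call of Slc38a4 was lost without ectoderm replicate 2 or either mesoderm library (adjusted p up to 0.27) and that of Slc6a6 without either mesoderm library or endoderm replicate 1 (up to 0.35), and with a pseudocount of 0.1 both were lost. The count was 2 without either mesoderm library and 3 without endoderm replicate 1.

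In endoderm 10 members were called, all 10 higher, where 12.2% of all genes tested were called. Of all genes 1384 were higher and 260 lower there. With quantile normalization the split was 9 higher and 2 lower. Slc7a9 was at 60.1 and 48.3 FPKM in endoderm and at or under 0.166 in the 6 other libraries (5.64 ± 0.33, adjusted p = 5.14e-11). Slc7a8 was at 46.0 and 48.9 FPKM and at or under 0.496 elsewhere (5.21 ± 0.31, adjusted p = 8.11e-11). These 2 light chains of the VE thus separated endoderm from the other tissues without overlap. Slc7a7 was at 129 and 137 FPKM against 3.63 to 35.1 (3.60 ± 0.63, adjusted p = 0.00024), and Slc3a2 at 140 and 129 against 34.6 to 52.7 (1.48 ± 0.19, adjusted p = 4.78e-06). Slc43a2 (2.48 ± 0.33, adjusted p = 8.39e-06) and Slc38a9 (1.99 ± 0.22, adjusted p = 5.39e-07) were higher too. These 6 calls held in each leave-one-out fit. The 4 others, named after their values were seen, were Slc38a3, Slc38a6, Slc38a7 and Slc6a4.

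The E7.5 endoderm libraries carried VE markers, with Ttr at 1419 and 980 FPKM and all 8 endoderm markers at 1 FPKM or more. A second endoderm list of 4 genes (Foxa2, Trh, Cer1 and the shared Sox17) summed to 1329 and 1317 FPKM there. In E6.5 VE the second list summed to 513 and 541 FPKM, so it is not particular to definitive endoderm. In the other E7.5 tissues the 8 endoderm markers summed to between 1.15 and 8.34 FPKM. The shares of visceral and definitive endoderm in the endoderm values were not tested. Of the other carriers 6 of 13 tested were higher in endoderm and 0 lower, led by Tmem27 (means of 6.92 and 0.149 FPKM, 2.80 ± 0.21, adjusted p = 2.46e-09) and Pqlc2 (48.4 and 4.16 FPKM, 3.27 ± 0.29, adjusted p = 3.36e-08). Of the 18 amino acid response genes 3 were higher and 0 lower, among them Psph (148 and 26.6 FPKM, 2.47 ± 0.30, adjusted p = 3.30e-06). Beside both lists, 1384 of all genes were called higher in endoderm and 260 lower.

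Culture for 4 days from E4.5 was compared between epiblast and VE, in its own table. Of 37 members 12 were called, 3 higher in epiblast and 9 higher in VE, where 24.5% of all genes tested were called, and with quantile normalization the split was 7 and 10. Slc7a3 was at 65.8 and 109 FPKM in cultured epiblast and 0.405 and 0.586 in cultured VE (5.85 ± 1.31, adjusted p = 0.0021). Slc7a8 was at 0.955 and 0.389 against 35.9 and 31.6 FPKM (-4.40 ± 0.39, adjusted p = 5.41e-08), and Slc7a9 was listed at 0 in both epiblast libraries and at 14.0 and 28.4 FPKM in VE (adjusted p = 1.07e-07). These 3 calls held in each leave-one-out fit, also without VE replicate 1, the library with the epiblast marker sum of 286 FPKM, where 14 members were called. Slc3a2 was at 27.9 and 35.4 against 91.5 and 99.1 FPKM (-1.57 ± 0.23, adjusted p = 3.17e-05), a call named after its values were seen, and Slc7a7 at 18.0 and 32.7 against 116 and 87.6, with no call.

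The next 3 genes by size of difference that were higher in VE were Slc38a7, Slc36a1 and Slc38a9. Slc38a7 was at 1.56 and 3.49 against 16.0 and 22.3 FPKM (-2.55 ± 0.46, adjusted p = 0.00031), Slc36a1, a proton-coupled carrier, at 0.0901 and 0.470 against 5.10 and 5.85 (-2.35 ± 0.35, adjusted p = 3.37e-05), and Slc38a9 at 0.315 and 0.308 against 4.74 and 5.66 (-2.24 ± 0.26, adjusted p = 2.45e-06). In the list of other carriers 5 of 13 tested were higher in VE and 0 lower (of all 13493 genes 1837 were higher in VE and 1463 in epiblast), with Tmem27 listed at 0 in epiblast against 19.9 and 24.0 FPKM, and Ctns, the lysosomal cystine exporter, at means of 1.05 and 27.0 (-3.76 ± 0.45, adjusted p = 3.13e-06). Slc7a6, at 9.85 and 14.1 against 23.7 and 72.4 FPKM (-1.73 ± 0.59, adjusted p = 0.032), lost its call without either epiblast library or VE replicate 2 (adjusted p up to 0.37), with a pseudocount of 0.1 and with no filter. In the fit on the 2 groups alone Slc7a6 and Slc38a7 were not called. The system A genes Slc38a1 and Slc38a2, higher in epiblast at E5.5 and E6.5, were not called in culture: Slc38a2 was at 27.7 and 34.7 FPKM in epiblast and 37.2 and 54.1 in VE, and Slc38a1 at 11.8 and 12.8 against 0.624 and 9.44 (adjusted p = 0.40 and 0.051), and for neither did the libraries of the groups overlap. The other calls, named after their values were seen, were Slc38a3 and Slc38a5 higher in epiblast and Slc38a6 and Slc7a1 higher in VE.

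Embryos cultured for 2 days were compared with those cultured for 1 day. Of 37 members 3 were called, 2 higher and 1 lower, where 6.46% of all genes tested were called. Slc38a7 was at 0 and 2.39 FPKM after 1 day and 10.8 and 8.89 after 2 (2.56 ± 0.46, adjusted p = 0.0015), and Slc1a5 at 22.1 and 33.4 and then 11.7 and 7.59 (-1.43 ± 0.40, adjusted p = 0.034). Slc6a8, at means of 0.415 and 3.26 FPKM, was the third and is named after its values were seen. Slc7a3 differed within both groups, at 5.29 and 35.9 FPKM after 1 day and listed at 0 and at 99.2 after 2 days, where the library at 0 is the one with Pou5f1 at 3.21 FPKM and a sum of 3119 FPKM for the 5 TE markers (1355 in its label mate). Without that library 8 members were called, without day 1 replicate 1 there were 6, and in the fit on these 2 groups alone 0, with 2 at an unadjusted p under 0.05 in limma. The Slc1a5 call was lost without day 1 replicate 2 or day 2 replicate 2 (adjusted p up to 0.16) and with a pseudocount of 0.1. The 8 endoderm markers summed to 19.8 and 31.2 FPKM after 1 day and 177 and 122 after 2, with Ttr at means of 0.72 and 30.6, and their part in the Slc38a7 difference was not tested. With quantile normalization 1 was higher and 1 lower.

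Some members are neighbours in the genome. In RefSeq GRCm38.p6 Slc38a1, Slc38a2 and Slc38a4 lie side by side on chromosome 15 with 0 coding genes between them, and Slc36a1, Slc36a2 and Slc36a3 on chromosome 11. The 3 Slc38 neighbours had different patterns in vivo. The mean of Slc38a2 reached 10 FPKM in each in vivo group from E4.0 on. Among in vivo groups Slc38a1 was highest in E6.5 epiblast, at 37.7 and 31.8 FPKM, and Slc38a4 in E7.5 mesoderm, at 110 and 91.7. Of the Slc36 neighbours only Slc36a1 passed 1 FPKM. Slc43a1 and Slc43a3 on chromosome 2 are parted by 1 coding gene. Among in vivo groups they peaked respectively in primitive streak (13.3 and 12.8 FPKM) and E3.5 ICM (53.2 and 28.5 FPKM).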

How the data were processed

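Gene expression was measured by Smart-Seq2 RNA-seq in 30 libraries. The authors deposited FPKM per gene in 3 tables. Per the submitters' processing notes the tools were TopHat2 2.0.11 and Cufflinks 2.0.2 and the build mm9. The annotation is not given in the sources used here. FPKM carry no counts, so depth per library is unknown and no counting interval was given. Values of 1e-06 or less were set to 0, and 27 symbols turned into dates were left out. The tables share 22563 genes, of which 13493 reached 1 FPKM in 2 or more libraries. These were fitted on log2(FPKM + 1) with limma (3.58.1, R 4.3.3), using a trend of variance on mean. The fit held all 15 groups and left 15 residual degrees of freedom. Contrasts stayed within a table. Adjusted p is Benjamini-Hochberg over all genes tested. The fit was also run on simulated data in which each gene had the same spread in all groups. That run cannot show how the fit behaves where groups differ in spread. In the data the standard deviation of the log2 difference between label mates ran from 0.258 in E7.5 mesoderm to 1.11 in embryos cultured for 1 day.

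Genes given with full values in a comparison are called members with libraries that do not overlap and a higher group mean of at least 5 FPKM, up to 6 a direction. Other called members are named after their values were seen. Genes of the fixed lists are given as counts, with up to 3 named by adjusted p. Members and lists were chosen with earlier results of these data known. Alternatives were a pseudocount of 0.1, no filter, quantile normalization, a replicate block, a fit on the groups compared alone, and each library left out. Promoter sequences are RefSeq's.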

Additional observations from a re-analysis of the deposited data

Results flagged for a closer look

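Slc3a2 and Slc7a9 differed between stages in their contrast of epiblast with visceral endoderm, by a limma test of the difference itself. For Slc3a2 the contrast at E6.5 minus that at E5.5 was -1.75 ± 0.33 on the log2 scale (adjusted p = 0.0073). At E5.5 both epiblast libraries lay above both VE libraries, and at E6.5 both lay below. The E5.5 difference, 0.43, was not called (adjusted p = 0.14 in limma), and the median of all genes there was 0.36. For Slc7a9 it was -1.95 ± 0.57 (adjusted p = 0.048), with both VE libraries above both epiblast libraries at each stage. With quantile normalization neither was called, and the Slc7a9 call was also lost in 6 of 8 fits with a library left out and under the other 4 alternatives. The median of all genes tested in the same contrast was -0.41.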

How the results depend on the processing

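Of 66 calls of named genes 30 were kept under each alternative tried and in each leave-one-out fit, 25 were lost in at least 1 leave-one-out fit, and 58 were kept with quantile normalization. None of these 66 calls changed direction under an alternative, or in the leave-one-out fit with the highest adjusted p for that call. Direction was not checked elsewhere. Member counts moved by more than 1.5 times as follows, and the cause was not tested. In fits on only the groups compared, with fewer samples to estimate the spread, counts were 6 for E4.0 against E3.5 ICM, 5 for E5.5 epiblast against E4.0 ICM, 5 for streak against E6.5 epiblast and 0 for culture of 2 against 1 days. For E6.5 against E5.5 epiblast 1 was called with a pseudocount of 0.1, with no filter and with the replicate block. For E6.5 against E5.5 VE quantile normalization gave 3, and for mesoderm a pseudocount of 0.1 gave 2. For the difference between stages the counts were 1 with a pseudocount of 0.1, 1 with no filter, 0 with quantile normalization and 1 with the replicate block.

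With a library left out, a lone remaining library being assumed to vary like the other groups, counts ran from 7 to 9 for E4.0 against E3.5 ICM, 4 to 8 for E5.5 epiblast against E4.0 ICM, 10 to 14 for E5.5 epiblast against VE, 6 to 10 for E6.5 epiblast against VE, 3 to 6 for VE between stages, 1 to 5 for ectoderm, 2 to 4 for mesoderm, 2 to 8 for culture of 2 against 1 days and 1 to 2 for the difference between stages.

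The correlation of same-numbered deviations was taken over 57 pairs of groups. It had a median of 0.0056, from -0.268 to 0.438, exceeded 0.1 in 9 and was under -0.1 in 6. Most of these pairs join different stages, so the median cannot show whether replicate numbers pair tissues of the same stage. With the replicate block 10 members were called for E3.5 ICM against TE, 15 for E5.5 and 14 for E6.5 epiblast against VE, and beyond the counts above it moved none by more than 1.5 times. It ended the calls of Slc38a1 for E5.5 epiblast against E4.0 ICM (adjusted p = 0.053) and of Slc7a9 for the difference between stages (adjusted p = 0.052). Without counts, the precision of low FPKM cannot be given.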
